A study of Mus musculus with 6 samples.

Results

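The miRNAs described here are 7 mature forms tied by earlier work to the protein Roquin-1 or to the feedback control of Toll-like receptor signalling. They are mmu-miR-146a-5p, mmu-miR-146b-5p, mmu-miR-155-5p, mmu-miR-101a-3p, mmu-miR-101a-5p, mmu-miR-101b-3p and mmu-miR-101c (written below without the species prefix), chosen by name, and all 7 were among the 707 miRNAs of the count table. They were measured in small RNA libraries of exosomes, the small vesicles that cells release, from the supernatant of bone marrow-derived macrophages. The 3 WT samples and the 3 samples of the Roquin-1 san:san genotype were all on the C57BL/6 strain. The labels name no treatment, stimulus, age or sex, and they do not say whether samples of a genotype came from separate mice or cultures, so any p-value reflects only how these samples vary, and that variation may be technical.

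Roquin-1 binds stem-loops of messenger RNAs and recruits the machinery that degrades them, and san is the sanroque allele, a missense change that leads to autoimmunity in mice. Roquin has been reported to bind miR-146a and Argonaute2 and to limit the amount of miR-146a, and miR-101 has been linked to the repression of the T-cell costimulator Icos together with Roquin. miR-146a and miR-146b are induced through NF-kappaB and repress the adaptors Irak1 and Traf6, which makes them brakes on Toll-like receptor signalling, whereas miR-155 is induced by the same receptors and sustains inflammatory responses.

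The mature sequences are shown because the identity of several of these rows depends on a few bases. All 7 were matched in RefSeq (GRCm38.p6), and capitals mark the seed, bases 2 to 8 from the 5′ end.
miR-146a-5p: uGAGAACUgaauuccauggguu
miR-146b-5p: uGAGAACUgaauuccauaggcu
miR-155-5p: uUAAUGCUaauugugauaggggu
miR-101a-3p: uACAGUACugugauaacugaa
miR-101b-3p: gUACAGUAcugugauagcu
miR-101c: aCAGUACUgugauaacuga
miR-101a-5p: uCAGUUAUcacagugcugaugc

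miR-146a-5p and miR-146b-5p shared the seed GAGAACU, which no other of the 1679 mature miRNAs in that RefSeq table carried. Over their 22 bases they differed at 2 positions, G18A and U21C, counted from the 5′ end of miR-146a-5p. The miR-101 forms start at different bases of a common core. The 19 bases of miR-101c are identical to bases 2 to 20 of miR-101a-3p. miR-101b-3p begins 1 base earlier, and over the 18 bases that it shares with miR-101a-3p it carries the single difference A16G, counted from the 5′ end of miR-101a-3p. Because of these start positions, bases 2 to 8 differed among the 3 forms as RefSeq lists them.

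The loci lie apart in the GRCm38.p6 assembly, which is not the build of the authors' reads. The mature miR-146a-5p is at chr11:43374435-43374456 on the minus strand, from the gene Mir146, and GENCODE lists no other gene over that hairpin. miR-146b-5p is at chr19:46342790-46342811 (plus strand), in an intron of Mfsd13a, and miR-155-5p at chr16:84714143-84714165 (plus strand), in an exon of the long non-coding RNA Mir155hg. Both arms of Mir101a come from an exon of the long non-coding RNA E130102H24Rik, with miR-101a-3p at chr4:101346957-101346977 and miR-101a-5p at chr4:101346993-101347014 (minus strand). miR-101b-3p is at chr19:29135338-29135356 (plus strand), in an intron of Rcl1, and miR-101c at chr9:3038680-3038698 (minus strand).

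The libraries differed in depth with the genotype: the WT libraries held 12447 to 28884 miRNA counts, the san:san libraries 126098 to 185901. A single count was therefore worth 28.1 to 70.4 CPM (counts scaled to a fixed library size, with factors from the trimmed mean of M-values, TMM) in WT and 6.38 to 10.4 CPM in san:san. Depth and genotype cannot be told apart in this design. Markers fixed by name were used to check the cell type. All 8 macrophage and myeloid miRNAs were detected in both genotypes and made up 4.86% to 5.84% of WT counts and 10.2% to 11.7% of san:san counts. Erythroid miRNAs made up 3.84% to 6.25% and 15.6% to 17.9% (5 of 5 detected in both genotypes, with the identical rows of miR-486a-5p and miR-486b-5p both counted), and lymphocyte miRNAs 0.412% to 0.492% and 1.38% to 1.92% (2 of 2 detected in WT, with miR-150-3p at 0 in san:san). Endothelial miRNAs ranged from 1.82% to 3.69% and from 3.37% to 6.96%, stromal ones from 0.844% to 1.32% and from 0.741% to 0.833%, and the liver miRNA miR-122-5p from 0.501% to 0.699% and from 0.420% to 0.580%. Neural miRNAs (2 of 3 in the table, without miR-124-3p) ranged from 0.0964% to 0.149% in WT and from 0.0947% to 0.111% in san:san. That sum joined 1 miRNA lower in san:san, miR-9-5p, and 1 higher, miR-128-3p. Muscle miRNAs were at or below 0.0312% and epithelial ones at or below 0.0138% in every library, with miR-133a-3p and 4 of the 5 epithelial markers at 0 in WT. The part of these other cell types in the results was not tested, and a difference in which cells released the vesicles cannot be told apart from a difference in the miRNA that each cell packed.

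In edgeR's quasi-likelihood test 163 of the 254 miRNAs with enough counts to test, 64.2%, differed between the genotypes at an adjusted p under 0.05, 88 higher and 75 lower in san:san. With total counts in place of TMM, 49 were higher and the rest of the 150 called were lower. Of the 7 miRNAs described here 4 passed the filter, namely miR-146a-5p, miR-146b-5p, miR-101a-3p and miR-101c, and 0 of the 4 passed the test. At an unadjusted p under 0.05 the number was also 0 of 4, both in edgeR and in DESeq2.

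miR-146a-5p was by far the most abundant of the group and ranked 18 of 707 by mean level. It had 267, 405 and 265 counts in the WT libraries and 2545, 2275 and 1316 in the san:san libraries. On the TMM scale these were 18787, 11373 and 9712 CPM in WT versus 16239, 17319 and 13639 CPM in san:san. On this scale the highest of all 6 values belonged to WT replicate 1. The other 2 WT libraries lay below every san:san library, so the genotypes overlapped on it through WT replicate 1 alone. The WT mean was 13290 ± 4832 CPM and the san:san mean 15732 ± 1891 CPM (SD, n = 3 per genotype throughout), a log2 fold change of 0.26 ± 0.25 (SE) with a 95% interval from -0.27 to 0.79 and an edgeR adjusted p of 0.363. WT replicate 1 was also the shallowest library, and its share of miR-146a-5p, 2.15% of counts (95% exact interval 1.90% to 2.42%), lay above those of WT replicate 2 (1.40%, 1.27% to 1.54%) and WT replicate 3 (1.22%, 1.08% to 1.37%) by more than counting error. The san:san shares were 1.37%, 1.42% and 1.04%. By share, san:san replicate 3 was thus the lowest of all 6, and WT replicates 2 and 3 lay within the san:san range. Without WT replicate 1 the log2 fold change was 0.49 (edgeR adjusted p = 0.0288), a fold change that the interval from all 6 libraries includes. That fit left out the library with the highest value and called 175 of 293 tested miRNAs, so passing it does not set miR-146a-5p apart. With total counts and all 6 libraries the log2 fold change was -0.32, with an edgeR adjusted p of 0.256. Here and below, the intervals on shares and ratios of counts cover counting error only.

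The hairpin of miR-146a is shown to place the measured arm. It is printed 5′ to 3′ from RefSeq with the 5p arm in capitals (Mir146, chr11:43374397-43374461, minus strand), and only that arm has a row among those analysed here.
Mir146: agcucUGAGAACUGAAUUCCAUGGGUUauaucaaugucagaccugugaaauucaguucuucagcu

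miR-146b-5p, which shares the seed of miR-146a-5p but comes from another chromosome, was at a lower level and ranked 45 of 707. It had 51, 106 and 65 counts in WT versus 519, 441 and 297 in san:san, or 3588, 2977 and 2382 CPM against 3312, 3357 and 3078 CPM. As for miR-146a-5p, WT replicate 1 was the highest library and WT replicate 3 the lowest. On the TMM scale the 3 san:san values lay inside the range of the WT values. The means were 2982 ± 603 and 3249 ± 150 CPM, the log2 fold change was 0.15 ± 0.20 (95% interval -0.29 to 0.59) and the edgeR adjusted p was 0.530. Its value was below 0 with DESeq2 (-0.11), RLE size factors (-0.11) and total counts (-0.45), and did not pass with any of them.

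**Figure D1:**
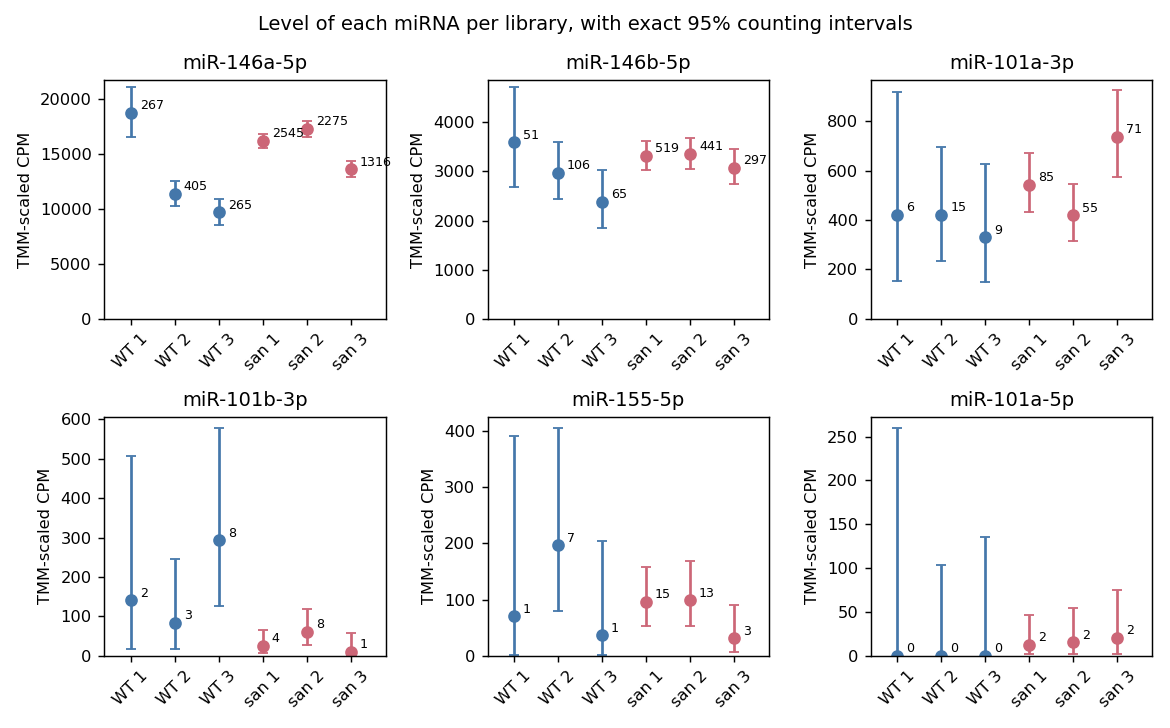
TMM-scaled CPM (vertical axes, linear, from 0) of 6 miRNAs in the 3 WT (blue) and 3 san:san (red) libraries, with exact 95% counting intervals as bars and the raw count beside each point. On this TMM scale miR-146a-5p overlaps between genotypes only through WT replicate 1 at 18787 CPM, and miR-101b-3p is lower in each san:san library than in each WT library, with wide intervals.

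The balance between the 2 miR-146 forms can be read within each library, where no scaling factor enters. miR-146b-5p made up 16.0%, 20.7% and 19.7% of the reads of both forms in WT and 16.9%, 16.2% and 18.4% in san:san. The genotypes overlapped, and the log2 ratio of miR-146b-5p to miR-146a-5p was -2.11 ± 0.24 in WT and -2.27 ± 0.11 in san:san, a difference of -0.16 (two-sided exact permutation p = 0.4, adjusted p = 0.533 over 8 ratios). With 3 libraries against 3 this test cannot give a p under 0.1, so no ratio below could pass. Pooled over libraries the share was 19.2% (95% exact interval 16.9% to 21.5%) in WT and 17.0% (16.2% to 17.9%) in san:san.

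Among the miR-101 forms, which repress the histone methyltransferase Ezh2 among other targets, miR-101a-3p was the most abundant and ranked 154 of 707. Its counts were 6, 15 and 9 in WT versus 85, 55 and 71 in san:san. These gave 422, 421 and 330 CPM in WT versus 542, 419 and 736 CPM in san:san. san:san replicate 2 lay below the WT libraries 1 and 2, so the genotypes overlapped, while the other 2 san:san libraries were above all of WT. The log2 fold change was 0.52 ± 0.33 (95% interval -0.18 to 1.23, edgeR adjusted p = 0.179). The WT libraries held 30 counts of it in all. The value was -0.09 with total counts, and with a library left out it ranged from 0.27 (without san:san replicate 3) to 0.74 (without san:san replicate 2), with edgeR adjusted p from 0.0733 to 0.456.

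miR-101c cannot be read as a separate measurement. Its 6, 15 and 9 counts in WT equalled those of miR-101a-3p in every library, and its 83, 54 and 71 counts in san:san differed from them by 2 counts, 1 count and 0. Over san:san it had 208 counts against 211 of miR-101a-3p. The sequence of miR-101c lies whole inside that of miR-101a-3p, and how the authors assigned reads that match several names is not given in the sources used here. Its log2 fold change of 0.50 ± 0.33 (edgeR adjusted p = 0.195) therefore repeats that of miR-101a-3p.

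miR-101b-3p differed from miR-101a-3p in the direction of its values. It had 2, 3 and 8 counts in WT versus 4, 8 and 1 in san:san, which are 13 counts in each genotype although the san:san libraries were several-fold deeper. An equal level would have given 64.8 counts over san:san. On the TMM scale the libraries held 141, 84.2 and 293 CPM in WT versus 25.5, 60.9 and 10.4 CPM in san:san, so each san:san library was below each WT library. Such a separation, in either direction, was found for 36.9% of all 707 miRNAs of the table and 70.9% of those tested, so it is not unusual here. Pooled over libraries the level was 168.6 CPM in WT versus 33.8 CPM in san:san, 4.99-fold lower in san:san with a 95% exact counting interval from 2.13-fold to 11.7-fold.

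This miRNA fell just short of the filter on low counts, with 2 libraries, both WT, at or above the needed 129 CPM of total counts where 3 were required. Looser settings of that filter admitted it through WT libraries alone, with 3 WT and 0 san:san libraries past the 64.5 CPM that a minimum count of 5 needs. Since it would enter those tests through the genotype in which it was high, they give no support to the difference. With no filter at all it was lower in san:san by log2 -2.14 (edgeR adjusted p = 0.00990), in a fit that called 207 of 707 miRNAs. Without a filter, leaving out WT replicate 1 gave -2.23 (edgeR adjusted p = 0.0171) and leaving out WT replicate 2 gave -2.56 (0.00738). The test was not passed in the absence of WT replicate 3 (-1.43, 0.314), the library that held 8 of the 13 WT counts.

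Within libraries, miR-101b-3p made up 25.0%, 16.7% and 47.1% of the reads of miR-101a-3p and miR-101b-3p in WT, and 4.49%, 12.7% and 1.39% in san:san. The genotypes did not overlap, although the nearest libraries, WT replicate 2 at 16.7% (95% exact interval 3.58% to 41.4%) and san:san replicate 2 at 12.7% (5.65% to 23.5%), had overlapping intervals. The log2 ratio was -1.23 ± 1.00 in WT and -4.18 ± 1.44 in san:san, a difference of -2.95 (two-sided exact permutation p = 0.1, the smallest possible, and 0.4 adjusted over 8 ratios). It stayed between -3.68 and -2.25 when any single library was left out. For comparison, the ratio to miR-101a-3p separated the genotypes for 56.1% of 253 tested miRNAs. The hairpins from which the 3p forms come are printed with the mature arms in capitals, both arms for Mir101a (chr4:101346945-101347027, minus strand) and the 3p arm for Mir101b (chr19:29135279-29135375, plus strand).
Mir101a: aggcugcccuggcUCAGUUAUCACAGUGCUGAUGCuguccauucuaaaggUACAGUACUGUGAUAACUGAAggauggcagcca
Mir101b: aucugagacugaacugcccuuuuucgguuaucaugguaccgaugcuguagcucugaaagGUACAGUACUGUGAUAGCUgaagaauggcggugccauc

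The 5p arm of Mir101a, the passenger strand, was scarce. miR-101a-5p had 0 counts in each WT library and 2 counts in each san:san library, the latter worth 12.8, 15.2 and 20.7 CPM. A count of 0 in WT allowed up to 211, 84.2 and 110 CPM in the 3 libraries (3 counts each), all above the san:san values, so a difference was not detectable at this depth. In san:san the 5p arm made up 2.76% of the reads of both arms (95% exact interval 1.02% to 5.92%). In WT it was 0 beside 30 reads of the 3p arm, which allows a share of up to 11.6% (upper end of the 95% exact interval).

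**Figure D2:**
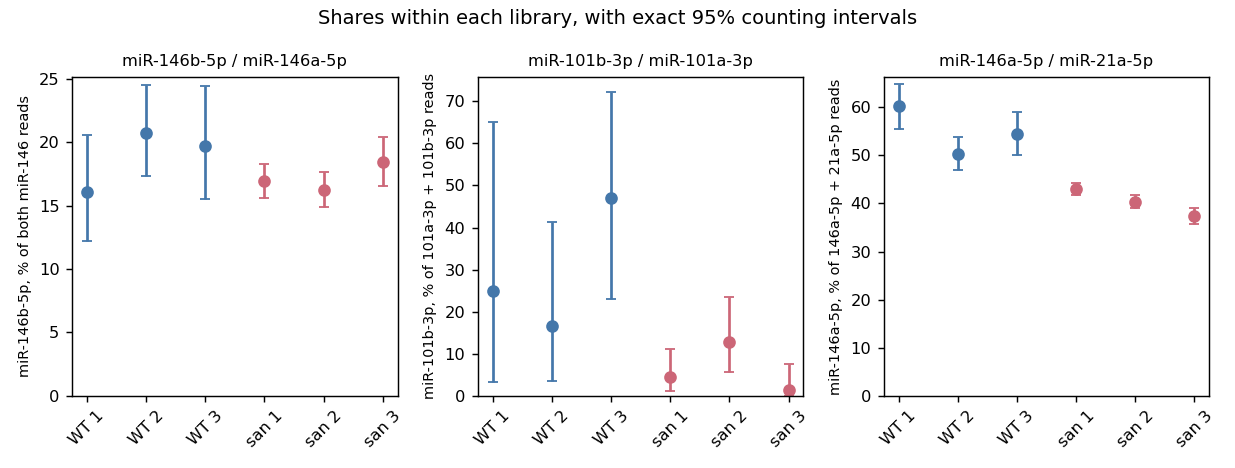
Share of reads within each library (vertical axes, percent, from 0) for 3 pairs of miRNAs in WT (blue) and san:san (red), with exact 95% counting intervals. The miR-146b-5p share overlaps between genotypes, the miR-101b-3p share is 16.7% to 47.1% in WT and 1.39% to 12.7% in san:san, and miR-146a-5p is the larger part of its pair with miR-21a-5p in WT and the smaller part in san:san.

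miR-155-5p was scarce in the exosome libraries of both genotypes. It had 1, 7 and 1 counts in WT versus 15, 13 and 3 in san:san. The scaled values were 70.4, 197 and 36.6 CPM in WT versus 95.7, 99.0 and 31.1 CPM in san:san, and WT replicate 2 was the highest of all 6, while the other WT libraries lay within the range of the san:san libraries. Pooled over libraries the level was 117 CPM in WT versus 80.6 CPM in san:san, a san:san over WT ratio of 0.691 with a 95% exact counting interval from 0.321 to 1.65, which includes equality. WT replicate 2 held 7 of the 9 WT counts, and the log2 ratio was -0.53 with it and 0.64 without it. With no filter on low counts edgeR gave -0.39 (adjusted p = 0.690). The passenger strand miR-155-3p had 2 counts, both in san:san replicate 2, and 0 in the other libraries.

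Relative to miR-146a-5p, the brake induced by the same receptors, there were 0.375, 1.73 and 0.377 reads of miR-155-5p per 100 reads in WT versus 0.589, 0.571 and 0.228 in san:san. These ratios overlapped (difference of log2 ratios -0.87, exact permutation p = 0.6, adjusted p = 0.686). That difference rests on few counts: it was -0.30 without WT replicate 2. With a pseudocount of 1 in place of 0.5 it was -1.08 and the log2 ratios no longer overlapped (exact permutation p = 0.1, the smallest possible). WT replicates 1 and 3 held 1 count each of miR-155-5p, so a larger pseudocount raises their ratios most. The separation is therefore no result about miR-155-5p, and how many tested miRNAs separate in this ratio was not computed. miR-101a-3p stood at 2.25, 3.70 and 3.40 per 100 reads of miR-146a-5p in WT and at 3.34, 2.42 and 5.40 in san:san, also with overlap (difference 0.14, exact permutation p = 0.9, adjusted p = 0.9).

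The tested members lay near the middle of all fold changes. The median log2 fold change of all 254 tested miRNAs was 0.30. miR-146a-5p was 0.04 below the median of all (-0.04), with 48.4% of tested miRNAs at a lower fold change, and miR-146b-5p stood at -0.15 relative to it, with 44.9% below. miR-101a-3p lay 0.23 above it, with 55.1% of tested miRNAs below. The median of all tested miRNAs was 0.30 with TMM, 0.04 with RLE size factors, 0.02 with DESeq2, and -0.30 if only total counts were used. Relative to that median miR-146a-5p stood at -0.04, -0.04, -0.03 and -0.01 in the same order, miR-146b-5p at -0.15, -0.15, -0.13 and -0.14, and miR-101a-3p at 0.23, 0.23, 0.25 and 0.22. A change of scaling shifts all fold changes by nearly the same amount, so these steady positions were largely set in advance. The position of miR-146a-5p moved further with the libraries: it was 0.31 above the median without WT replicate 1, with 60.1% of tested miRNAs below it, and at -0.20 without WT replicate 3, with 44.3% below.

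**Figure D3:**
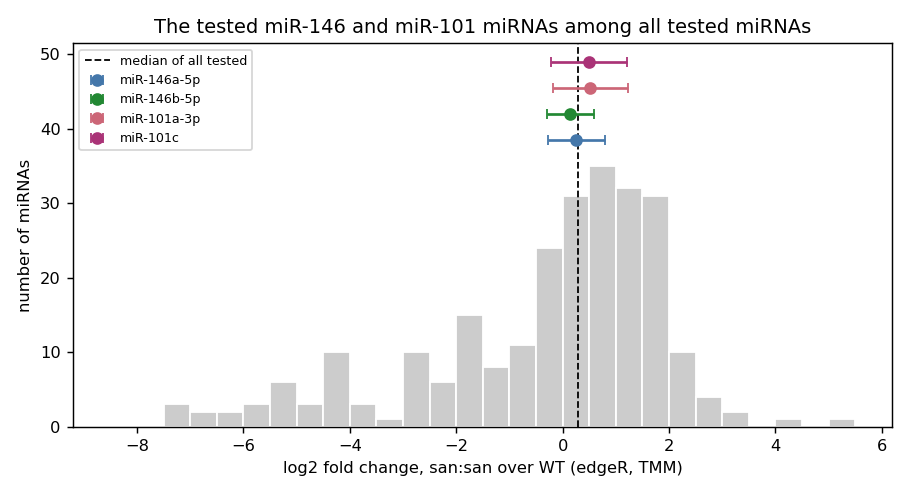
Histogram of log2 fold changes (horizontal axis, san:san over WT) of the 254 tested miRNAs, with the fold changes and 95% intervals of miR-146a-5p, miR-146b-5p, miR-101a-3p and miR-101c drawn above it and the median of all tested miRNAs as a dashed line. All 4 intervals include 0 and the median of 0.30.

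**Figure D4:**
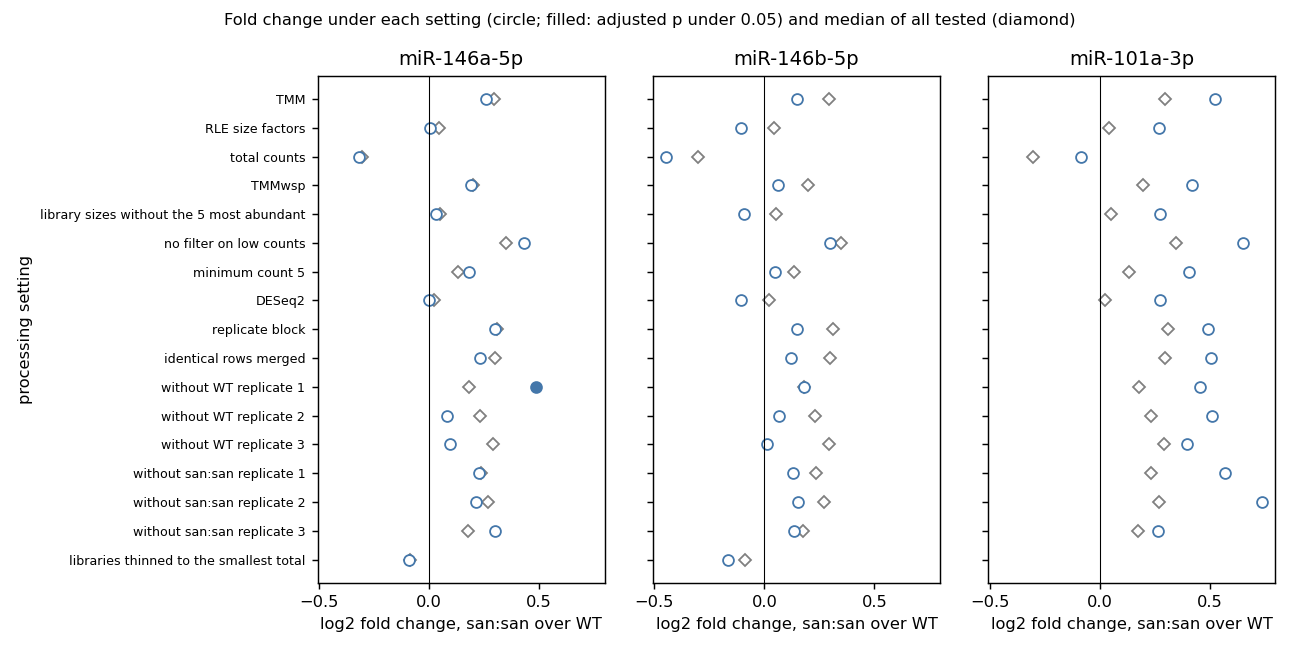
Log2 fold change of miR-146a-5p, miR-146b-5p and miR-101a-3p (circles, horizontal axis) under each processing setting (vertical axis), with the median of all tested miRNAs under that setting as a diamond. A circle is filled where the adjusted p was under 0.05, which occurred once, for miR-146a-5p without WT replicate 1.

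miR-146a-5p was also compared with 2 abundant macrophage miRNAs in the same library. miR-21a-5p, induced by inflammatory signals and widely expressed, rose in san:san (log2 1.15 ± 0.21, edgeR adjusted p = 3.19e-04). There were 152, 102 and 120 reads of miR-146a-5p per 100 of miR-21a-5p in WT versus 75.4, 67.7 and 59.7 in san:san. Every WT library was thus above 100 and every san:san library below it. The difference of the log2 ratio was -0.87 (exact permutation p = 0.1, 0.4 adjusted over 8 ratios) and stayed between -1.0 and -0.71 when any single library was left out. Of the 253 tested miRNAs other than miR-21a-5p, 60.9% had a ratio to miR-21a-5p that separated the genotypes, so this separation is no feature of miR-146a-5p in particular.

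Against miR-223-3p, a miRNA of granulocytes and monocytes, the ratio overlapped. miR-223-3p was itself higher in san:san (log2 0.87 ± 0.26, edgeR adjusted p = 0.00849), so it is no unchanged reference. It did not pass with total counts (0.29, edgeR adjusted p = 0.355) or in DESeq2 (0.61, adjusted p = 0.0662). There were 297, 346 and 153 reads of miR-146a-5p per 100 of miR-223-3p in WT versus 156, 163 and 176 in san:san, with WT replicate 3 below all san:san libraries (difference of log2 ratios -0.60, exact permutation p = 0.4, adjusted p = 0.533).

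Other miRNAs induced by Toll-like receptors did not move as a group. Of 14 named, 13 were in the table and 7 passed the filter on low counts. Of these 1 rose, 3 fell and 3 did not pass, against 34.6% higher and 29.5% lower among all tested miRNAs, and the median log2 fold change of the 7 was -0.12 against 0.30. The one that rose was miR-21a-5p. The 3 that fell were let-7e-5p (log2 -0.93 ± 0.20, edgeR adjusted p = 0.00114), of the let-7e, miR-99b and miR-125a cluster, and both arms of miR-9, which is known from neurons and from activated monocytes. Both arms of miR-9 were counted separately and passed the filter through WT libraries alone, the genotype in which they were high. The number that fell and the median therefore rest in part on that filter.

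miR-9-3p had 34, 43 and 28 counts in WT versus 2, 2 and 1 in san:san and fell by 6.63 in log2 units (edgeR adjusted p = 6.11e-08). miR-9-5p had 4, 17 and 14 counts in WT versus 2, 4 and 2 in san:san and fell by 4.31 (adjusted p = 5.98e-06). Since both arms entered the test through WT libraries alone, these p-values give no support to the fall. The cluster partners of let-7e-5p, miR-99b-5p (log2 -0.12, adjusted p = 0.653) and miR-125a-5p (0.21, 0.337), did not pass, nor did miR-27b-3p (0.45, 0.218). The remaining 6 were too low to test. Among them miR-147-3p had 0, 6 and 0 counts in WT versus 4, 12 and 5 in san:san, and miR-132-3p had 0, 0 and 2 against 2, 10 and 4.

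The tested miRNAs whose levels followed those of the members most closely were found by the root mean square difference of centred log2 CPM over the 6 libraries. For miR-146a-5p they were miR-98-5p (0.14), miR-30e-3p (0.16) and miR-122-5p (0.17), where the median over all tested miRNAs was 0.87. For miR-146b-5p they were miR-122-5p (0.13), miR-145a-5p (0.14) and let-7a-5p (0.15), with a median of 0.83. miR-101a-3p was nearest to miR-101c (0.014), which shares its counts, then to miR-22-5p (0.16) and miR-324-5p (0.19), with a median of 0.79. None of these neighbours passed the test between genotypes (edgeR adjusted p from 0.186 to 0.783). That was largely set by the choice, since they were picked for nearness to members that did not pass. The points share libraries and scaling factors, and the distances are descriptions.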

How the data were processed

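Sample titles gave the genotype and replicate number. RNA was extracted with Trizol and miRNA libraries followed standard Illumina procedures, per the labels' protocols, which name an mRNA library kit too. Reads were handled on build mm9, per the submitters' processing notes. Aligner, trimming and miRNA annotation: not given in the sources used here.

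Values are whole-number counts per mature miRNA, as the authors deposited them. The scaled values deposited per sample were not used. The number of columns from other series was 0.

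The test was edgeR 4.0.16 (R 4.3.3): quasi-likelihood, robust, filterByExpr at a minimum count of 10, TMM, genotype as the only term, Benjamini-Hochberg over 254 miRNAs. CPM are counts over the TMM-scaled sizes of the tested miRNAs. Ratios within libraries added 0.5 to each count and were tested by two-sided exact permutation. DESeq2 1.42.0 was an alternative. Procedures were tested on simulated data. Named miRNAs were all members, their partner arms, the ratio partners, the Toll-like receptor list (values for 4 with the smallest p) and 3 nearest neighbours; the values of its other miRNAs were added after they were seen. Members and lists were chosen with earlier results of these data known.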

Additional observations from a re-analysis of the deposited data

How the results depend on the processing

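The number of all miRNAs called, 163, stayed within 1.5 times of that under every scaling, filter and test tried and was between 134 and 175 with a library left out, but was 83.5 (median of 20 draws, 131 tested) in libraries thinned to the smallest total. The number of members called was 0 of 4 tested. It was 1 of 6 with a minimum count of 5, where 172 of all 300 tested miRNAs were called, and 1 of 7 with no filter (207 of 707). The member called was miR-101b-3p each time (under the minimum count of 5 it was admitted through WT libraries alone). With a library left out the number was between 0 and 2. Without WT replicate 1 it was 2 of 6 (175 of 293 of all), miR-146a-5p and miR-101b-3p. Without WT replicate 2 it was 1 of 6 (134 of 290), miR-101b-3p. That miRNA entered both of these fits through WT libraries alone, so its calls there give no support. Each of these member shares was below that of all tested miRNAs.

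Log2 fold changes that turned negative were, with total counts, miR-146a-5p (-0.32), miR-146b-5p (-0.45), miR-101a-3p (-0.086) and miR-101c (-0.11), and, with DESeq2, miR-146a-5p (-0.0021) and miR-146b-5p (-0.11). In thinned libraries they were -0.093 for miR-146a-5p and -0.16 for miR-146b-5p, and the miR-101 forms were too low to test in most draws. miR-146b-5p was also at -0.11 with RLE factors and -0.094 with library sizes without the 5 most abundant miRNAs. With a library left out miR-146a-5p ranged from 0.081 to 0.49 and passed without WT replicate 1, and the log2 ratio of miR-101a-3p to miR-146a-5p, 0.14, ranged from -0.17 to 0.41. The other ratios kept their direction under each alternative, although that of miR-155-5p to miR-146a-5p, -0.87, was -0.30 without WT replicate 2 and its genotypes overlapped or not with the pseudocount. The ratio of miR-101a-5p to miR-101a-3p was -0.50, and -1.17 with a pseudocount of 1. WT had 0 counts of miR-101a-5p, so that direction was set by the pseudocount and is no result about the arms.

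Replicate numbers are shared by title only, so they were not taken as pairs. Deviations of same-numbered libraries correlated at 0.10, -0.08 and 0.26, and those of differently numbered libraries at -0.21 to 0.15. With 3 libraries per genotype these values cannot settle whether the libraries were paired. With the replicate number as a block 161 miRNAs and 0 members were called, and the exact permutation p of the miR-101b-3p to miR-101a-3p ratio was 0.25, the smallest that 3 pairs allow. Alternatives for the scaled ratios of miR-155-5p and miR-101b-3p were chosen after seeing the data, as were the tests of miR-101b-3p with no filter and a library left out: miR-101b-3p stayed between -3.07 and -1.57 with a library left out and was -2.92 with total counts, and miR-155-5p ranged from -0.99 to 0.64. Depth limits miR-155-5p and miR-101a-5p most, with 9 and 0 counts over WT.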
